A study of Rattus norvegicus with 20 samples.

Results

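Glutathione enzymes and targets of the transcription factor Nrf2 were followed in rat liver through 10 genes, Gstp1, Gstm1, Gstm2, Gsta4, Mgst3, Gclc, Gclm, Nqo1, Hmox1 and Txnrd1. The genes were taken as every probe set of the deposited table whose platform annotation gives one of these symbols, which found 12 probe sets, with 1 for each gene except Gclc and Txnrd1, which had 2 each. All 10 passed the filter on low values, being above it on all 20 arrays, among 11576 genes tested of 14217 with an annotated probe set. The study fed male Sprague-Dawley rats, 4 weeks old on arrival and kept on a commercial diet for 7 d, in 4 groups of 7 for 15 d. The first diet held 0.2% sesamin, the second 0.2% episesamin and the third 0.2% sesamolin, and the remaining diet was lignan-free. Liver RNA of 5 rats per diet was hybridised to Affymetrix arrays, 1 array per rat, after the heaviest and lightest animals of each group had been left out. Each replicate is thus a separate rat, and 5 rats per diet limit the precision of every value. Sesamin and episesamin are lignans of sesame oil that are epimers of each other, and sesamolin differs from sesamin by an ether oxygen between a methylenedioxyphenyl group and the furofuran ring system.

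Glutathione is the main thiol of the liver cell. Glutamate cysteine ligase, made of the catalytic subunit Gclc and the modifier subunit Gclm, carries out the first step of its synthesis, and glutathione transferases attach it to reactive compounds so that they can be excreted. Under resting conditions Keap1 holds Nrf2 (gene Nfe2l2) in the cytoplasm and hands it to degradation, and electrophiles release it to bind antioxidant response elements in promoters of genes such as Nqo1, Hmox1, Gclc, Gclm and Txnrd1.

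The RefSeq promoter table, on the rat build GRCr8, held entries for 9 of the 10 genes, Hmox1 being the exception, with 10 promoters in all because Txnrd1 has 2 starts. Each entry covers 250 bases before the start and 50 after it. The core of the antioxidant response element, searched as TGACNNNGC on both strands, occurred in promoters of 3 genes, Gstp1, Gclm and Txnrd1 (1 of its 2 starts). The same core was found in 12.1% of all 33469 rat promoters of that length. These promoters are shown because they hold a match to the core, and that of Mgst3 because it is the gene whose RNA differed between diets. Whether a match works as an element was not tested, and bases outside the window were not searched for any gene. Capitals mark the core, and each sequence gives the 250 bases before the start, read 5′ to 3′ on the strand of the gene.
Gstp1, chr1:210769706-210769955, minus strand: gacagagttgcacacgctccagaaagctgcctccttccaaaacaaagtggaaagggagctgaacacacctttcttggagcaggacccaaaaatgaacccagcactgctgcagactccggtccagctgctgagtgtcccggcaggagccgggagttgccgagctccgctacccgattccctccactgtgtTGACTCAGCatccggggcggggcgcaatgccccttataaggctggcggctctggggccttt
Gclm, chr2:213031885-213032134, plus strand: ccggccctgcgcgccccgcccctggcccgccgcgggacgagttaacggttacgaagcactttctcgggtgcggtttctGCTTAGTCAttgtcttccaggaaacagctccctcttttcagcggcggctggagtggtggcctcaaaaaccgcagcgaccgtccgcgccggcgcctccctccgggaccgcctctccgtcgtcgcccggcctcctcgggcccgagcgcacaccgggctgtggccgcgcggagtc
Txnrd1, chr7:22755905-22756154, minus strand: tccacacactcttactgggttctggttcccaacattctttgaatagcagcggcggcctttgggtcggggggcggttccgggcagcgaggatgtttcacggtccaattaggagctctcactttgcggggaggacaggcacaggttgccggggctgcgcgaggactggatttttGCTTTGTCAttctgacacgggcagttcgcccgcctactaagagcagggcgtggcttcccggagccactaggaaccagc
Mgst3, chr13:82080296-82080545, minus strand: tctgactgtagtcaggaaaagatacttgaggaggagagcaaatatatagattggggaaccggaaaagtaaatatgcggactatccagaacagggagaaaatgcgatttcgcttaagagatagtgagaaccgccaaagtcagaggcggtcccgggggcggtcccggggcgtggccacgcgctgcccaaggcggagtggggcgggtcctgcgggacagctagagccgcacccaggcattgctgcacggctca
The match in Gstp1 begins 61 bases before the start, and its first 7 letters are also the AP-1 motif TGACTCA, which 4.63% of all promoters hold. The matches in Gclm and Txnrd1 lie on the opposite strand to the gene, 172 and 78 bases before the start. No match was found in the window of Mgst3. A direct repeat of AGGTCA with 1 base between the copies, a motif of nuclear receptors searched on both strands, was in none of the member promoters and in 0.0538% of all promoters.

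Levels are quantile-normalized intensities on a linear scale, and they can be compared between diets for 1 probe set but not between probe sets. Differences are on a log2 scale after an offset of 5.85 was added, ± SE, from 1 limma model of the 20 arrays (n = 5 rats in each diet), and a gene is called where the p-value adjusted over all 11576 genes by the Benjamini-Hochberg method is below 0.05. The 3 comparisons with the lignan-free diet share its 5 arrays, so they are not independent of each other. The mean raw intensity of the arrays ran from 159 to 271, and correlations between arrays of a diet from 0.951 to 0.972. All 9 measured hepatocyte markers were above the filter. Their summed level was 97860 to 101336 in episesamin livers, below the 102284 to 105706 in lignan-free livers. The sums of sesamin and sesamolin livers overlapped the lignan-free range. With episesamin 0 of the 9 were called, their median log2 difference was -0.06, and 2 of them were above 0. Lignan-free replicate 3 stood apart in several genes: it was the highest of its group for Gstp1 and Txnrd1, the lowest for Gstm1, and its summed stellate and endothelial cell markers, 8214, were above the 6037 to 6630.3 of the other 4 lignan-free arrays. Differences of Gstp1, Gstm1, Txnrd1 and Mgst2 are given with and without it. Leaving it out also ended the sesamolin calls of Me1, Glrx3 and Msra and the episesamin call of Idh1, which are reported below.

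Across the 4 diets, Mgst3 was the only member with a difference past the threshold (F test, adjusted p = 0.00443), against 4.89% of all genes. Among the 10 members, 0 were called for sesamin, against 0.432% of all genes, and 2 of the 10 had an unadjusted limma p below 0.05, against 7.45% of all genes. For episesamin, 1 member was called, Mgst3, against 5.12% of all genes, and 3 members had an unadjusted p below 0.05, against 19.7% of all genes. For sesamolin, 1 member was called, again Mgst3, against 6.24% of all genes, and 4 members had an unadjusted p below 0.05, against 20.3% of all genes. No member was lower at the threshold in any of these comparisons. The median log2 difference of the members was -0.07 for sesamin, 0.06 for episesamin and -0.04 for sesamolin, and the median of all genes was -0.01, -0.02 and -0.01.

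**Figure D1:**
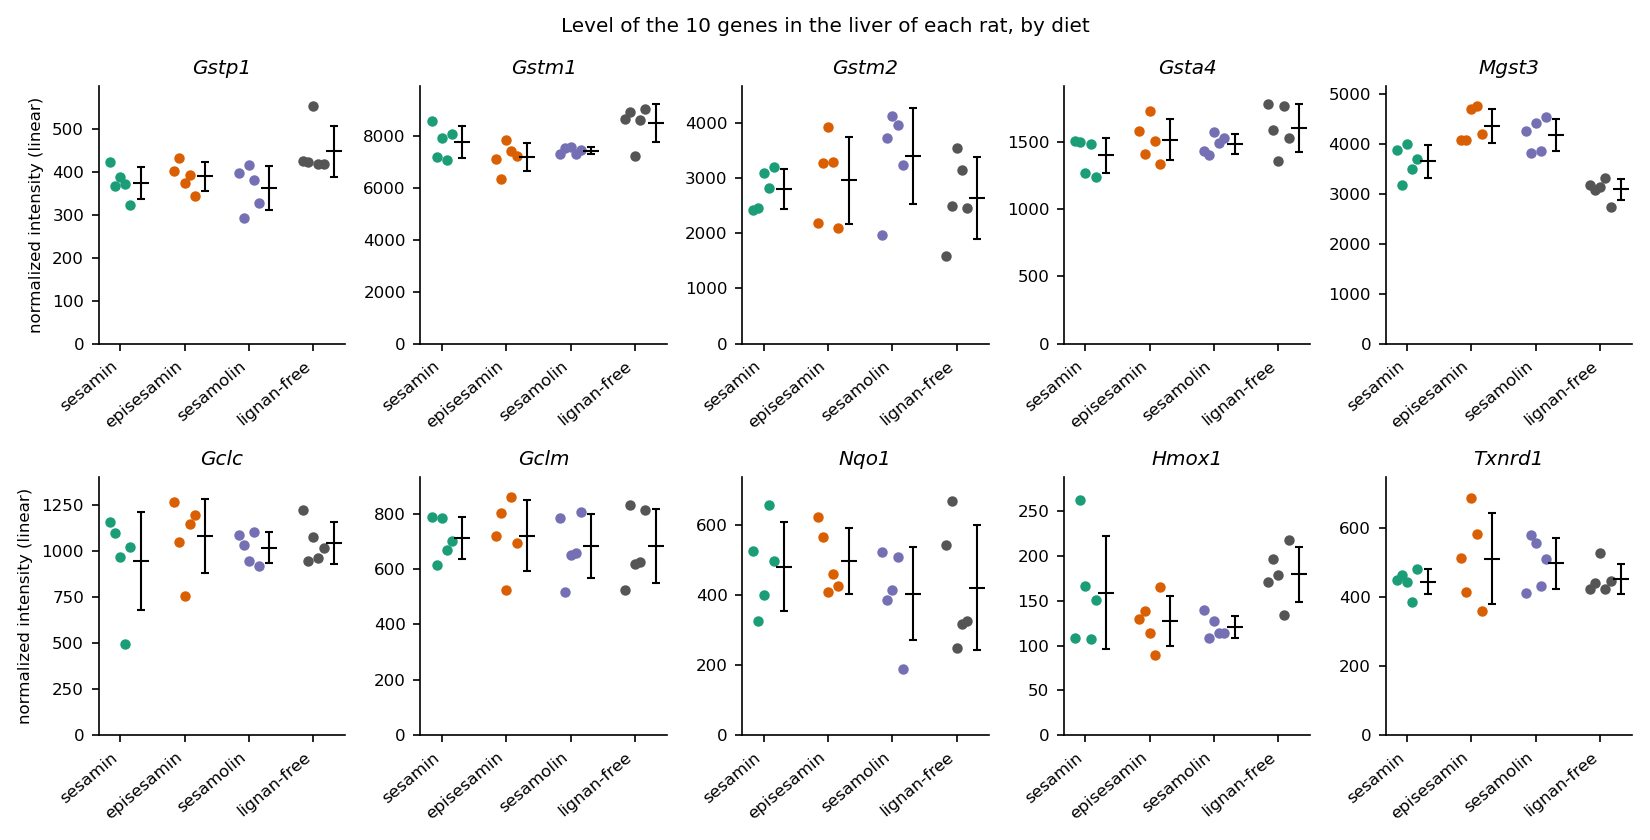
Level of each gene in the liver of each rat (points, normalized intensity on a linear scale) by diet, with the mean and SD of the 5 rats beside them. Mgst3 lies at 4072 to 4757 in episesamin livers and 3815 to 4525 in sesamolin livers, above the 2732 to 3301 of lignan-free livers, whereas the points of most other genes overlap between diets.

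Mgst3 encodes microsomal glutathione transferase 3, a membrane enzyme with glutathione transferase and peroxidase activity. Its normalized intensity was 3876, 3172, 3999.6, 3493 and 3695 in sesamin livers, 4072, 4072, 4697, 4757 and 4196 in episesamin livers, 4246, 3815, 4401, 3849 and 4525 in sesamolin livers, and 3172, 3080.5, 3134, 3301 and 2732 in lignan-free livers. Every episesamin and sesamolin liver was above every lignan-free liver, while 1 sesamin liver lay within the lignan-free range. Groups separated in this way, in either direction, for 6.85% of all genes with episesamin and for 6.93% with sesamolin. Mgst3 was 1.41-fold higher with episesamin (95% interval 1.25 to 1.60, log2 0.50 ± 0.09, limma adjusted p = 0.00151) and 1.35-fold higher with sesamolin (1.19 to 1.53, log2 0.43 ± 0.09, adjusted p = 0.00469). With sesamin the log2 difference was 0.24 ± 0.09 (0.06 to 0.42), which did not pass (adjusted p = 0.457). Leaving out any 1 of the 20 arrays ended neither call. The sesamolin call ended with arrays scaled to a common median (log2 0.41, adjusted p = 0.0502), and both calls ended without normalization between arrays (0.31 and 0.28, adjusted p = 0.314 and 0.406).

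**Figure D2:**
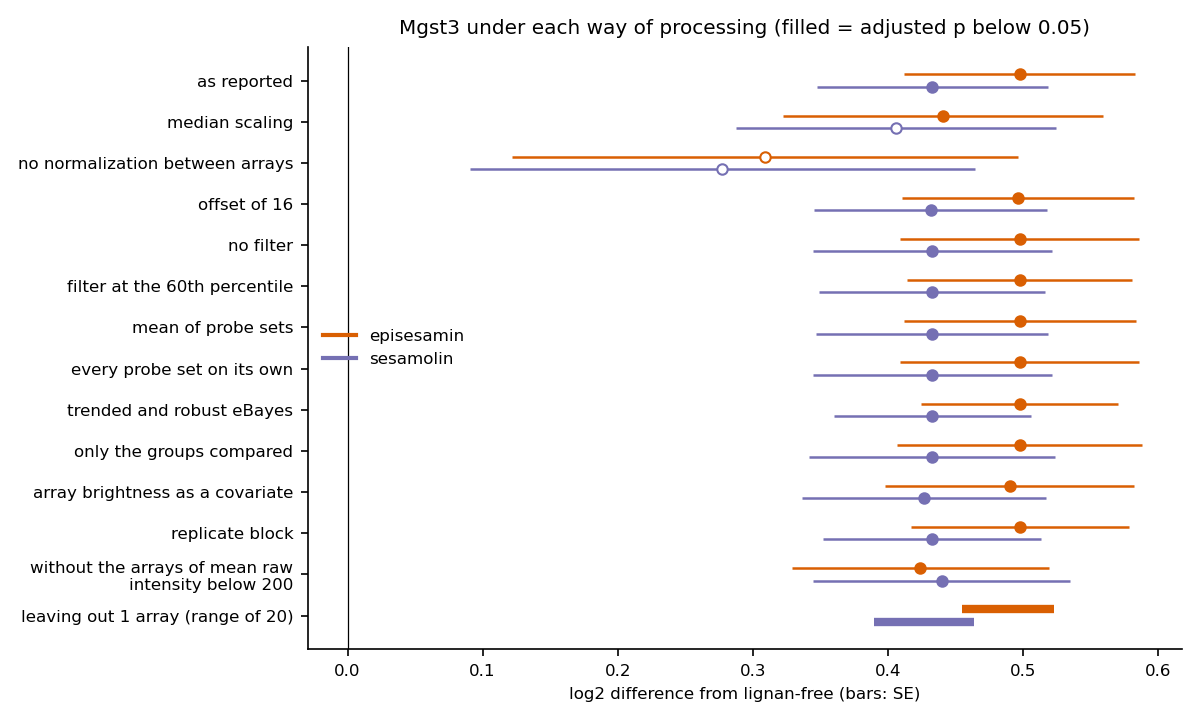
Log2 difference of Mgst3 from lignan-free livers for episesamin and sesamolin under each way of processing (points with SE bars, filled where the adjusted p is below 0.05), with the range over leaving out 1 array at the bottom. All values are above 0, from 0.28 to 0.52, and the open points are at median scaling for sesamolin and at no normalization for both lignans.

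Between lignans, Mgst3 differed by log2 0.26 (95% interval 0.08 to 0.44) for episesamin minus sesamin, with no overlap between the arrays of the 2 diets (the case for 3.64% of all genes), yet the adjusted p was 0.179. It differed by 0.19 (0.01 to 0.37, adjusted p = 0.295) for sesamolin minus sesamin and by -0.06 (-0.24 to 0.12, adjusted p = 0.978) for sesamolin minus episesamin. The epimers were thus not separated at the threshold for this gene, and neither were sesamolin and either epimer. The intervals leave room for a difference of up to 0.44 between the epimers.

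The genes whose levels followed Mgst3 most closely over the 20 arrays were Eci2, an enoyl-CoA isomerase, Hacl1, a 2-hydroxyacyl-CoA lyase, and Immt, a protein of the mitochondrial inner membrane. Their Pearson correlations with Mgst3 were 0.893, 0.893 and 0.892, and after the mean of each diet was removed these were 0.38, 0.56 and 0.55. The points share arrays and diets, so these values are descriptions.

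The cytosolic transferases did not pass in any comparison. Gstp1, the pi-class transferase, which in rat liver is known for its appearance in preneoplastic foci, had intensities of 423, 367, 387, 372 and 322 in sesamin livers, 402, 433, 375, 393 and 343 in episesamin livers, 397, 293, 416, 381 and 327 in sesamolin livers, and 425, 422, 553, 419 and 418 in lignan-free livers. All 5 sesamolin livers lay below all 5 lignan-free livers, but narrowly, the nearest being 416 and 418. Groups separated, in either direction, for 6.93% of all genes with sesamolin. One lignan-free liver, replicate 3, was far above the other 4. The log2 differences were -0.25 ± 0.11 with sesamin, -0.19 ± 0.11 with episesamin and -0.30 ± 0.11 with sesamolin (limma adjusted p = 0.621, 0.344 and 0.12). Without lignan-free replicate 3 they were -0.17, -0.12 and -0.22 (adjusted p = 0.753, 0.584 and 0.248).

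Gstm1, an abundant mu-class transferase of liver, had intensities of 8578, 7201, 7908, 7096 and 8093 in sesamin livers, 7122, 6337, 7845, 7422 and 7242 in episesamin livers, 7321, 7552, 7597, 7292 and 7445 in sesamolin livers, and 8661, 8921, 7242, 8626 and 9048 in lignan-free livers. Lignan-free replicate 3 was low, and the other 4 lignan-free livers were above every episesamin and sesamolin liver. Gstm1 varied little, its within-diet SD of 0.10 on the log2 scale being at percentile 4.30 of all genes. The log2 difference was -0.13 ± 0.08 with sesamin, -0.24 ± 0.08 with episesamin and -0.19 ± 0.08 with sesamolin (limma adjusted p = 0.804, 0.0957 and 0.193). With lignan-free replicate 3 left out, the episesamin difference was -0.30 and passed (adjusted p = 0.0334), and that of sesamolin was -0.24 (adjusted p = 0.0776). With trended and robust eBayes the episesamin difference passed as well (adjusted p = 0.0283).

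Gstm2, another mu-class transferase, averaged 2796.5 ± 354 in sesamin livers, 2954 ± 789 in episesamin livers, 3393 ± 871 in sesamolin livers and 2638 ± 742 in lignan-free livers (SD, n = 5 each). All 4 diets overlapped widely. Its log2 difference was 0.13 ± 0.23 with sesamin, 0.17 ± 0.23 with episesamin and 0.37 ± 0.23 with sesamolin, and the interval of the last, -0.11 to 0.85, includes 0. Members of the mu class are close copies of each other, so a probe set for Gstm1, Gstm2 or Gstm7 could also bind RNA of another copy, and their separate values are uncertain to that extent. Gsta4, an alpha-class transferase that conjugates 4-hydroxynonenal, averaged 1401 ± 131 in sesamin livers, 1517 ± 153 in episesamin livers, 1487 ± 71.2 in sesamolin livers and 1607 ± 177 in lignan-free livers. Its log2 differences were -0.19, -0.08 and -0.11 (± 0.09), none past the threshold (limma adjusted p = 0.672, 0.684 and 0.566).

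The 2 subunits of glutamate cysteine ligase did not differ at the threshold between any diets. Gclc had intensities of 1159, 1099, 967, 493 and 1022 in sesamin livers, 1266, 1051, 756, 1148 and 1198 in episesamin livers, 1090.1, 1033, 946, 1107 and 919.8 in sesamolin livers, and 1224, 945, 1076, 963 and 1020.3 in lignan-free livers. One array, sesamin replicate 4, was far below the rest, and it was also the lowest array on the second probe set, at 262. The log2 difference of Gclc was -0.19 ± 0.19 with sesamin, and without that array it was 0.02 ± 0.13. It was 0.04 with episesamin and -0.03 with sesamolin (± 0.19 each), and the second probe set gave -0.09, 0.20 and 0.03. Gclm averaged 712 ± 75.2 in sesamin livers, 721 ± 128 in episesamin livers, 684 ± 116 in sesamolin livers and 683 ± 133 in lignan-free livers (SD, n = 5 each). Its log2 differences of 0.07, 0.08 and 0.01 had intervals that reached from -0.32 to 0.40.

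Nqo1, the quinone reductase often read as a gauge of Nrf2 activity, had the widest intervals of the 10 genes. Its intensities were 524, 326, 399, 657 and 496 in sesamin livers, 622, 565, 408, 458 and 426 in episesamin livers, 521, 385, 415, 508 and 188 in sesamolin livers, and 542, 669, 249, 317 and 326 in lignan-free livers. The lignan-free livers alone spanned 2.69-fold, and each lignan diet overlapped them. The within-diet SD was 0.47 on the log2 scale, at percentile 81.7 of all genes. Its log2 differences were 0.25 (-0.35 to 0.84) with sesamin, 0.31 (-0.28 to 0.91) with episesamin and -0.04 (-0.64 to 0.55) with sesamolin (limma adjusted p = 0.91, 0.583 and 0.953).

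Txnrd1, the cytosolic thioredoxin reductase, averaged 446 ± 35.8 in sesamin livers, 513 ± 131 in episesamin livers, 499 ± 74.2 in sesamolin livers and 453 ± 43.5 in lignan-free livers (SD, n = 5 each). The log2 differences were -0.02, 0.14 and 0.13 (± 0.15), and the second probe set gave -0.01, 0.05 and 0.00. Without lignan-free replicate 3 they were 0.03, 0.20 and 0.19, none past the threshold (lowest limma adjusted p = 0.5). The 2 probe sets thus gave differences close to 0 for sesamin and smaller ones on the second set for the other lignans.

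Hmox1, heme oxygenase 1, which breaks down heme and is present in liver macrophages as well as in stressed hepatocytes, had the lowest estimates among the members with episesamin and sesamolin. Its intensities were 108, 263, 167, 108 and 150.5 in sesamin livers, 129, 139, 114, 89.6 and 165 in episesamin livers, 139.5, 109, 128, 114 and 114 in sesamolin livers, and 171, 197, 179, 134 and 218 in lignan-free livers. Of the sesamolin livers, 4 lay below every lignan-free liver and 1 lay within the lignan-free range, and the sesamin livers held both the highest value and values below the range. The log2 difference was -0.23 ± 0.20 with sesamin, -0.49 ± 0.20 (-0.91 to -0.06) with episesamin and -0.54 ± 0.20 (-0.96 to -0.11) with sesamolin, and none passed (limma adjusted p = 0.885, 0.183 and 0.133).

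Markers of Kupffer cells and other macrophages moved in the same comparisons. Of 11 measured markers, 0 were lower at the threshold with sesamin, 4 with episesamin and 8 with sesamolin. Among all 11576 genes, 4, 256 and 342 were lower at the threshold in these comparisons. All 11 markers had log2 differences below 0 in each of the 3 comparisons, with medians of -0.27, -0.43 and -0.74. Their summed level was 5422 to 8663 in sesamin livers, 5499 to 6617 in episesamin livers, 4206 to 6069 in sesamolin livers and 7633 to 8919 in lignan-free livers, so the sums of episesamin and sesamolin livers lay below all lignan-free sums. None of the 11 was below the filter. Of 13 measured markers of stellate and endothelial cells, 0 were lower at the threshold with sesamin. With episesamin and with sesamolin 2 each were lower, Kdr and Lyve1 in both. Above 0 were 2 of the 13 with sesamin, 4 with episesamin and 3 with sesamolin, among them Pecam1 (0.11, 0.30 and 0.26). The summed level of the 13 was 5337 to 6154 in sesamin livers and 5019 to 5870 in episesamin livers. It was 4524 to 5661 in sesamolin livers and 6037 to 8214 in lignan-free livers. The part of these cells in the Hmox1 values and in the other results was not tested, and in RNA of whole liver fewer cells of a type and less RNA per cell cannot be told apart.

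**Figure D3:**
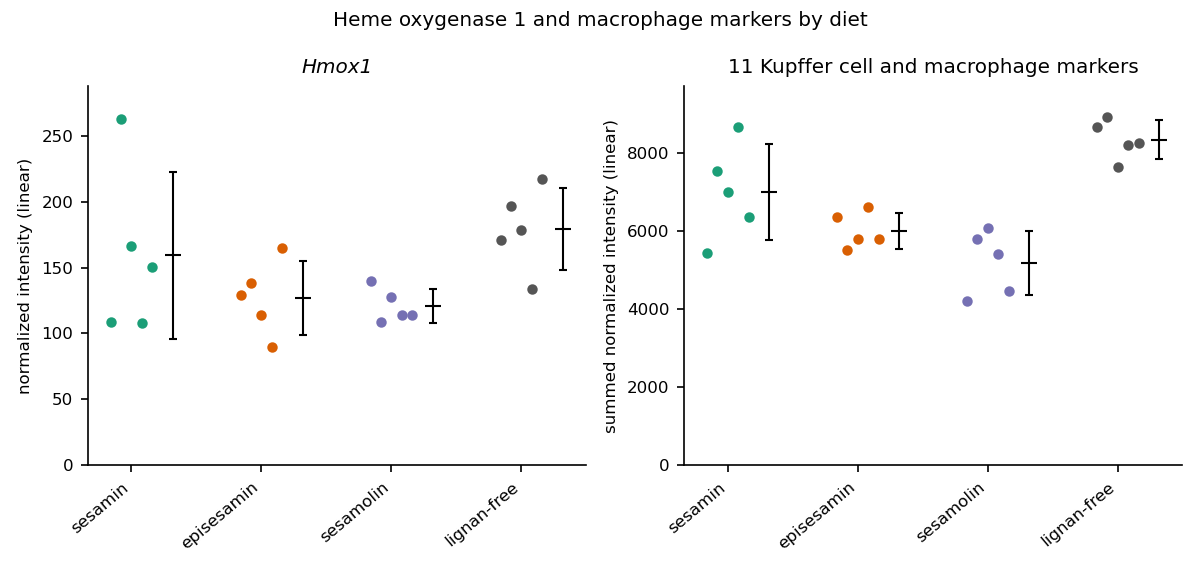
Hmox1 (left) and the summed level of 11 Kupffer cell and macrophage markers (right) in each liver, as normalized intensity on linear axes, with the mean and SD of 5 rats per diet. Hmox1 overlaps between diets, and the marker sums of episesamin livers (5499 to 6617) and sesamolin livers (4206 to 6069) lie below those of lignan-free livers (7633 to 8919).

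Lignan against lignan, 0 of the 10 members were called in each of the 3 pairs. For episesamin minus sesamin, 1.23% of all genes were called and 1 member, Mgst3, had an unadjusted limma p below 0.05, against 12.9% of all genes. For sesamolin minus sesamin, 1.81% of all genes were called and Mgst3 was again the 1 member with an unadjusted p below 0.05, against 14.5% of all genes. For sesamolin minus episesamin, 0% of all genes were called, 5.73% of them (663) had an unadjusted limma p below 0.05, and 0 members did. Estimates for the members ran from -0.26 to 0.26 for episesamin minus sesamin, from -0.31 to 0.24 for sesamolin minus sesamin and from -0.36 to 0.20 for sesamolin minus episesamin. The narrowest intervals, those of Gstm1, reached 0.17 to either side of the estimate and the widest, those of Nqo1, 0.59. A p that misses the threshold does not show that the compounds act alike.

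**Figure D4:**
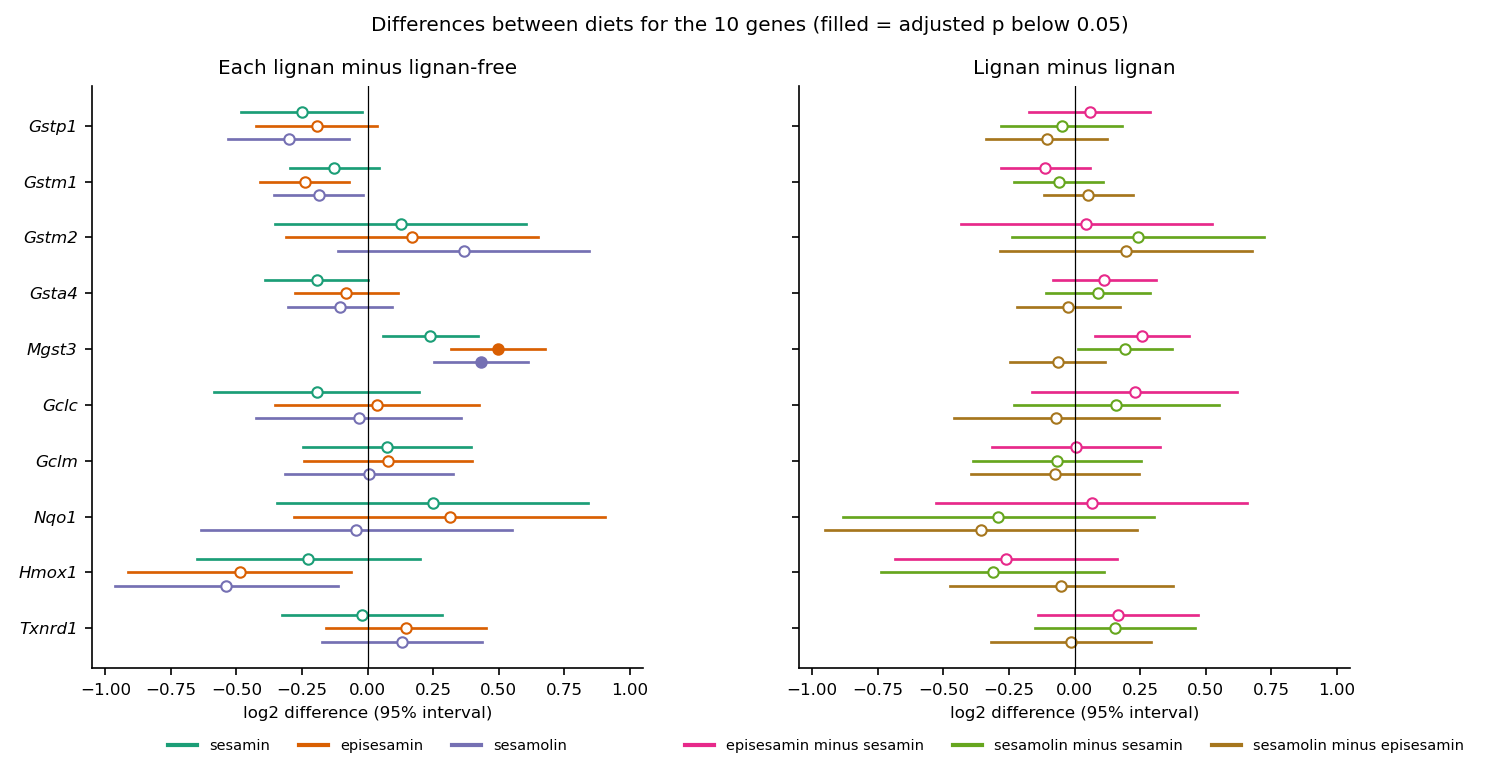
Log2 differences with 95% intervals for the 10 genes, each lignan minus the lignan-free diet (left) and lignan minus lignan (right), filled where the adjusted p is below 0.05. Only Mgst3 with episesamin and with sesamolin is filled, the intervals of Gstm1 are the narrowest and those of Nqo1 the widest.

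Beyond the members, 97 of 117 listed genes of glutathione, peroxide and NADPH metabolism and of the Nrf2 pathway were tested. With sesamin 0 of them were called (limma). With episesamin 7 were higher and 2 lower at the threshold (9.28% of the list, against 5.12% of all genes), and with sesamolin 10 were higher and 1 lower (11.3%, against 6.24% of all genes). The largest were Aldh1a1, a retinaldehyde dehydrogenase, at log2 2.51 ± 0.34 with episesamin and 2.26 ± 0.34 with sesamolin (adjusted p = 0.000131 and 0.000434), and Cbr1, a carbonyl reductase, at 1.32 ± 0.17 and 1.10 ± 0.17 (adjusted p = 7.56e-05 and 0.000606). Both belong, with Blvrb, to a list of other Nrf2 targets, of which 21 were tested. In that list 0 were called with sesamin, and 4 were higher with episesamin and 4 with sesamolin (19.0% each), with 0 lower. For sesamolin minus sesamin 4 were higher (19.0%, against 1.81% of all genes), and for episesamin minus sesamin 2 (9.52%, against 1.23%).

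Among 17 other glutathione transferases, Gstm7 was higher with episesamin and with sesamolin (0.86 ± 0.16 and 0.82 ± 0.16, limma adjusted p = 0.0033 and 0.00434) and Mgst2, a microsomal relative of Mgst3, was lower with episesamin (-0.47 ± 0.12, adjusted p = 0.0282). Mgst2 differed by -0.49 ± 0.12 with sesamin (limma adjusted p = 0.107) and by -0.34 ± 0.12 with sesamolin (adjusted p = 0.108). Lignan-free replicate 3 was low for Mgst2, and without that array the differences were -0.58, -0.56 and -0.43 for sesamin, episesamin and sesamolin, all past the threshold (adjusted p = 0.0236, 0.00773 and 0.034). Mgst1 and Gsta1, transferases with high intensities, had differences of -0.10 to 0.05 over the 3 lignans. Of 25 genes of peroxide defence, Gpx4, the phospholipid hydroperoxide peroxidase, was higher (0.31 ± 0.07 and 0.34 ± 0.07, adjusted p = 0.0152 and 0.00844) and Msra, a methionine sulfoxide reductase, was lower (-0.72 ± 0.14 and -0.53 ± 0.14, adjusted p = 0.00581 and 0.0355) with episesamin and sesamolin. In the glutathione supply list of 20 genes, 2 were called with sesamolin and 0 with episesamin. With sesamolin Slc3a2, the heavy chain of cystine transport, was at 0.53 ± 0.13 (adjusted p = 0.0209). Glrx3, a glutaredoxin, was at 0.44 ± 0.12 (adjusted p = 0.0288). Mean intensities of Slc3a2 were 786 in sesamin, 922 in episesamin, 1000 in sesamolin and 688 in lignan-free livers. Those of Glrx3 were 1096, 1326, 1410 and 1029, so levels with episesamin were near those with sesamolin. The biliverdin reductase Blvrb, which acts after heme oxygenase, rose by 0.61 ± 0.14 with episesamin and 0.58 ± 0.14 with sesamolin (adjusted p = 0.0118 and 0.0144).

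None of 9 tested Nrf2 regulators was called. Nfe2l2 itself differed by -0.27, 0.13 and -0.10 (± 0.24), and Keap1 by -0.22, -0.24 and -0.20 (± 0.07, limma adjusted p = 0.388, 0.0581 and 0.119). Leaving out single arrays ended the call of Mgst2 in 6 of 20 cases (highest adjusted p = 0.0802), of Glrx3 in 6 (0.0756), of Msra with sesamolin in 7 (0.0939) and of Slc3a2 in 2, namely lignan-free replicate 2 (0.46, adjusted p = 0.0598) and sesamolin replicate 3 (0.43, adjusted p = 0.0554). Median scaling ended the calls of Gpx4, Blvrb, Slc3a2 and Glrx3, and the median of all genes under it was -0.09, -0.13 and -0.10 for sesamin, episesamin and sesamolin, against -0.01, -0.02 and -0.01 as reported. Both Gpx4 calls also ended with its probe sets averaged, with only the compared groups and without normalization. Over the alternatives its lowest differences were 0.10 with episesamin and 0.17 with sesamolin. The calls of Aldh1a1 for both lignans, and of Cbr1 and Msra for episesamin, held in all 32 alternatives.

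**Figure D5:**
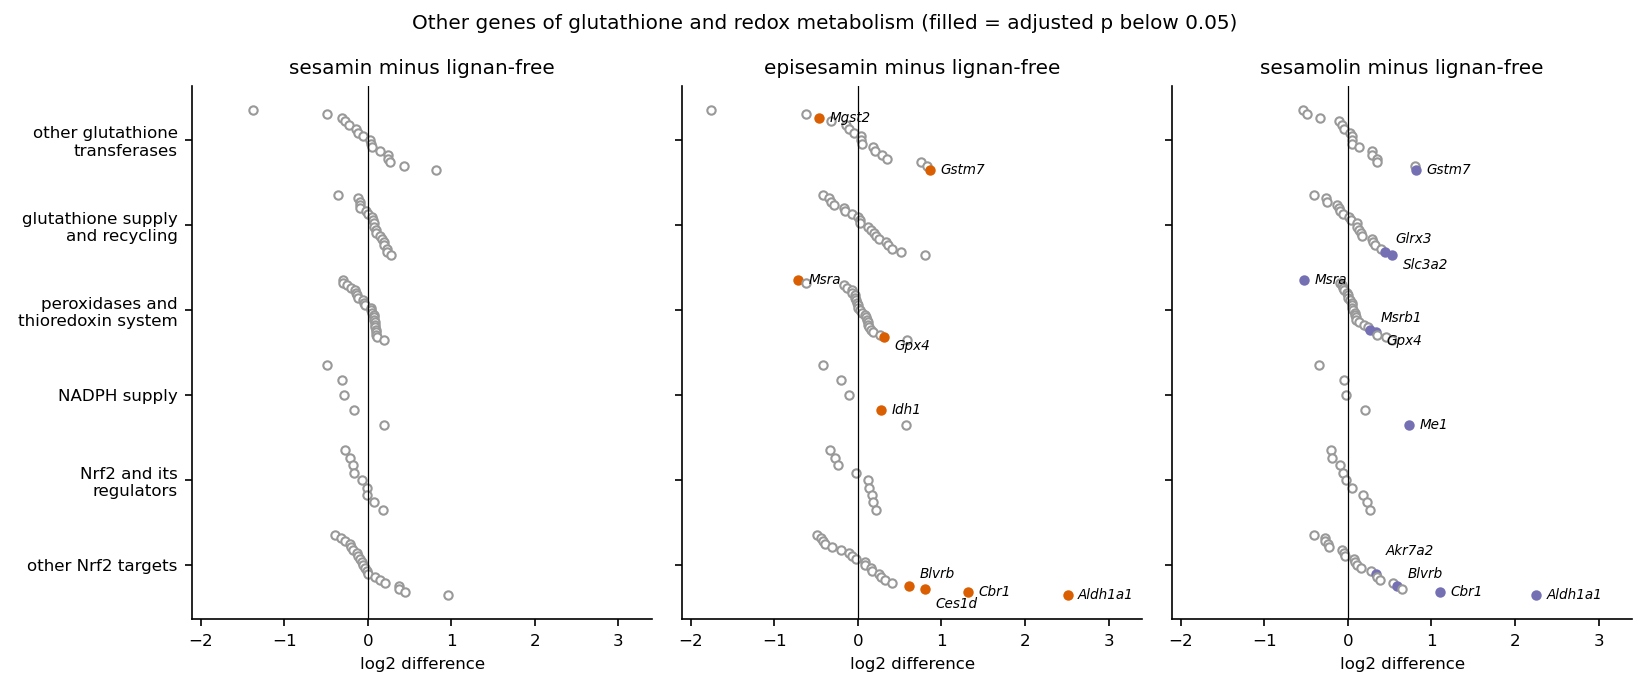
Log2 difference from lignan-free livers for each tested gene of 6 lists (points, filled and named where the adjusted p is below 0.05), 1 panel per lignan. No point is filled for sesamin, and the farthest filled points are Aldh1a1 (2.51 and 2.26) and Cbr1 (1.32 and 1.10) with episesamin and sesamolin.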

How the data were processed

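The submitters deposited 1 linear intensity per probe set and array, per the file headers (31099 probe sets, 20 arrays, values 0.0222 to 18018.4, array medians 20.9 to 33.0). The software that made them was a step not given in the sources used here. The table shows no centring and no common scale. Per the labels' protocols biotin-labelled cRNA of each rat's total RNA was hybridised without pooling. Arrays were quantile normalized, the 20th percentile (5.85) was added and log2 taken. Probe sets with 1 symbol in the platform annotation and a level above the 40th percentile (17.8) on at least 5 arrays were kept (20832 have 1 symbol, 436 several and 9831 are not listed there), and the probe set of highest mean stood for its gene. The 4 diet means were estimated from the 20 arrays in limma (version 3.58.1, under R version 4.3.3), with 2.59 prior beside 16 residual degrees of freedom (two-sided tests, Benjamini-Hochberg adjustment over 11576 genes, intervals of 95%). The fit was also run on simulated data whose added changes were larger than any member difference. That run does not show whether differences of the members' size would be detected.

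The members, pathway lists and marker lists were chosen with earlier results of these data known. Named are all members, from each other list up to 4 genes called in any of the 6 comparisons by lowest adjusted p and up to 2 uncalled ones of highest level, and the 3 genes best correlated with a member called by the F test. Alternatives were median scaling, no normalization, an offset of 16, a filter at the 60th percentile or none, a gene's probe sets averaged or each on its own, trended and robust eBayes, only the compared groups, array brightness as a covariate, the replicate number as a block and leaving out each array. A fit without the 6 dim arrays (mean raw intensity under 200) was added after seeing the data. Shared replicate numbers come from the titles. Same-numbered arrays of different diets had a median correlation of deviations of 0.03 (-0.06 to 0.25). For arrays of other numbers it was -0.01 (-0.15 to 0.14). The main model did not pair rats by number, and whether the number marks a shared factor was not settled by these values.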

Additional observations from a re-analysis of the deposited data

Results flagged for a closer look

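In 140 groups of 5 arrays (35 genes by 4 diets), 13 arrays lay farther from the rest of their diet than Dixon's critical value of 0.71 for the gap over the range on the log2 scale; chance gives about 1 in 20. Among the members, sesamin replicate 4 was low for Gclc (0.787), and lignan-free replicate 3 was low for Gstm1 (0.785), high for Gstp1 (0.938) and high for Txnrd1 (0.75). Among other pathway genes, the arrays that stood apart were sesamin replicate 2, low for Gstm7 (0.874), episesamin replicate 4 and lignan-free replicate 3, both low for Mgst2 (0.711 and 0.756), and sesamolin replicate 3, high for Slc3a2 (0.837) and Gpx4 (0.91). Lignan-free replicate 2 was high for Hagh (0.777) and lignan-free replicate 1 for Gpx1 (0.804). For Aldh1a1, sesamin replicate 5 (0.894) and sesamolin replicate 2 (0.741) were low.

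The lignans' effects differed from each other by the limma test of the pair itself in 5 cases among the named genes, none of them a member. Cbr1 was higher by log2 0.941 with episesamin than with sesamin (adjusted p = 0.00817) and by 0.72 with sesamolin than with sesamin (adjusted p = 0.0388). Aldh1a1 was higher by 1.55 with episesamin than with sesamin (adjusted p = 0.0308). That call ended without sesamin replicate 5, and the lowest value on leaving out 1 array was 1.19. With sesamin Aldh1a1 was at 0.96 against the lignan-free diet, not past the threshold. Its intensities were 1544, 1526, 1726, 1497 and 447 in sesamin livers, and 328, 544, 1415, 691 and 542 in lignan-free livers. Me1 was higher by 0.897 with sesamolin than with sesamin (adjusted p = 0.0179), and without sesamin replicate 4 by 0.78 (adjusted p = 0.0546). Akr7a3 was higher by 0.697 with sesamolin than with sesamin (adjusted p = 0.0157). That call ended under median scaling, without normalization and without the 6 dim arrays. Akr7a3 ran from 606 to 709 in sesamolin livers and from 359 to 449 in sesamin livers, both within the 353 to 756 of lignan-free livers. It was not called for either lignan against the lignan-free diet. Akr7a2 (0.42, limma adjusted p = 0.017) and Ephx1 (0.57, adjusted p = 0.0225) were also higher with sesamolin than with sesamin; both lie outside the rule for named genes and were chosen after their values were seen. Leaving out single arrays ended the Cbr1 call for sesamolin in 11 of 20 cases and the Aldh1a1 call in 6 of 20.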

How the results depend on the processing

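Mgst3 was called with episesamin and sesamolin, and its log2 difference stayed above 0 in all 32 alternatives for episesamin (0.31 to 0.52) and for sesamolin (0.28 to 0.46). The count of called members was 0 for sesamolin and 0 in the F test under median scaling, 0 for episesamin, sesamolin and the F test without normalization, and 2 for episesamin with trended and robust eBayes, Gstm1 being the second. In the F test it was 0 without the 6 dim arrays, an alternative chosen after seeing the data. Leaving out 1 array gave 1 to 2 called members for episesamin and 1 in each case for sesamolin and for the F test. Gstm1 with episesamin then passed without lignan-free replicate 3 (-0.30, adjusted p = 0.0334). Of 58 uncalled member differences, 30 turned sign in some alternative, the largest being 0.26 in size. The cause of these changes was not tested. With the replicate block, Mgst3 was at 0.50 (limma adjusted p = 0.00203) for episesamin and 0.43 (0.00496) for sesamolin, and no member call changed. The calls of Msra and Msrb1 with sesamolin and of Cbr1 for sesamolin minus sesamin ended. Of 20 arrays, 10 correlated best with an array of their own number, although only 30 pairs between diets shared a number and 120 did not.

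Over all genes, counts that moved by more than 1.5 times from 50 (sesamin), 593 (episesamin), 722 (sesamolin), 142 (episesamin minus sesamin) and 210 (sesamolin minus sesamin) were 65 and 81 for the last 2 under median scaling, 18, 263, 264, 12 and 23 without normalization, 31, 352, 376, 81 and 52 with only the compared groups, and 273, 373, 85 and 99 (all but sesamin) without the dim arrays; sesamolin minus episesamin, at 0, was 1 without the filter and 1 without the dim arrays. Leaving out 1 array gave 35 to 52 for sesamin, 370 to 632 for episesamin, 461 to 720 for sesamolin, 84 to 153 for episesamin minus sesamin, 112 to 223 for sesamolin minus sesamin and 0 to 1 for sesamolin minus episesamin. The arrays whose removal moved a count by more than 1.5 times were lignan-free replicates 4 and 5 and episesamin replicates 3 and 4 (episesamin), lignan-free 5 and sesamolin 5 (sesamolin), sesamin 4 and 5 and episesamin 5 (episesamin minus sesamin), sesamin 3, 4 and 5 and sesamolin 3 (sesamolin minus sesamin), and lignan-free 2 and 3 and episesamin 4 (sesamolin minus episesamin). Median scaling gave 180 higher and 496 lower genes for episesamin and 178 higher and 457 lower for sesamolin, against 337 and 256, and 380 and 342, as reported; the median of all genes was then -0.13 and -0.10, against -0.02 and -0.01 as reported, and relative to that median Mgst3 was at 0.57 and 0.50. Without normalization the median was -0.25 and -0.22, and Mgst3 was 0.56 and 0.49 above it. The number of arrays and the spread of dim probe sets limit what could be detected.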

Other observations

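Among NADPH-supplying enzymes, which feed the reduction of glutathione and thioredoxin, Me1, malic enzyme 1, was higher with sesamolin (log2 0.73 ± 0.19, limma adjusted p = 0.0285; 4479, 5378, 4962, 4767 and 4439 in sesamolin livers, against 2704, 3377, 1764, 4150 and 3006 in lignan-free livers). Leaving out single arrays ended that call in 5 of 20 cases (highest adjusted p = 0.0594). Me1 was at 0.57 ± 0.19 with episesamin (adjusted p = 0.0896) and at -0.17 ± 0.19 with sesamin (adjusted p = 0.909). Idh1, the cytosolic isocitrate dehydrogenase, was higher with episesamin by 0.28 ± 0.08 (adjusted p = 0.0491), a call that ended in 18 of 20 such cases (highest adjusted p = 0.119). With sesamin and sesamolin Idh1 was at 0.19 and 0.21 (± 0.08, adjusted p = 0.587 and 0.137). Msrb1, a methionine sulfoxide reductase, was higher with sesamolin by 0.27 ± 0.08 (adjusted p = 0.047), a call that ended in 14 of 20 (highest adjusted p = 0.113). Its mean intensity was 1255 in sesamin, 1426 in episesamin, 1425 in sesamolin and 1185 in lignan-free livers. The episesamin difference of Msrb1 was not called. Median scaling ended these calls of Me1, Idh1 and Msrb1, and averaging of probe sets ended those of Idh1 and Msrb1. Tkt and Pgd, enzymes of the pentose phosphate pathway, did not pass (adjusted p from 0.0814 to 0.955 over the 3 lignans). Of the other genes with high intensities, Hagh, Glrx5, Sod1, Gpx1, Sqstm1, Park7, Aldh9a1 and Esd had log2 differences between -0.17 and 0.22 from lignan-free livers, none past the threshold.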
